A study of Mus musculus with 16 samples.

Results

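Ribosome biogenesis factors are the proteins that make and process ribosomal RNA and put the ribosomal subunits together. A list of 40 of them was examined in mouse liver 12 h after partial hepatectomy (PHx), the removal of part of the liver, or after a sham operation. The members were fixed by gene symbol, and each was read from the probe set annotated with that symbol alone, taking the probe set with the highest mean over the 16 arrays. Of the 40 members, 38 were measured, among 30142 genes tested. Nop56 and Gnl3 lie on probe sets that carry several symbols and were not read.

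Total RNA of liver tissue from mice of 2 genotypes was measured on Affymetrix arrays. The Pparafl/fl mice, named WT in the labels, carry the floxed alleles of Ppara, the gene of the fatty acid sensing nuclear receptor PPARα. The Ppara△Hep mice have PPARα disrupted in hepatocytes only, so other liver cells keep the gene, and the labels do not name the Cre driver. Each genotype was operated on by sham or PHx and sampled at 12 h, with 4 arrays in each of the 4 groups, called here sham fl/fl, PHx fl/fl, sham ΔHep and PHx ΔHep. Whether 16 mice gave the 16 arrays is not stated in the labels, and p-values here refer to the variation among arrays, which may in part be technical. The arrays of a group are numbered 1 to 4, and the numbers pair nothing across groups.

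Ribosomes are assembled in the nucleolus, where RNA polymerase I transcribes the ribosomal RNA precursor and small nucleolar ribonucleoproteins (snoRNPs) modify it. Processing complexes then cut and fold the precursor into the small and large subunits, which mature on their way to the cytoplasm. Growing and dividing cells need more ribosomes, hepatocytes of a regenerating liver among them, and many of these factors are known targets of the transcription factor Myc, which binds DNA with its partner Max.

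Because Myc and Max are known to bind the sequence CACGTG (an E-box, its own reverse complement, so that both strands read alike), the promoters of the members were searched for it. RefSeq windows of 300 bases, from 250 before to 50 after an annotated start (build GRCm38.p6), were on hand for 36 of the 40 members. CACGTG occurred in a window of 8 of these 36 members (22.2%), against 8.1% of 27025 genes with an entry, and in 19 of 86 other ribosome biogenesis genes (22.1%). The 8 members were Rrn3, Imp4, Nop2, Wdr43, Ltv1, Pno1, Tsr1 and Pes1. The match describes letters in these windows and shows no binding. The stretches that hold the motif before the start in Nop2, Rrn3 and Imp4 are shown as examples of where it lies, with CACGTG in capitals, 5′ to 3′ on the gene's strand, the + strand in each.
Nop2, chr6:125131796-125131855: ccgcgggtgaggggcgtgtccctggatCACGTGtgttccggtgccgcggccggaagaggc
Rrn3, chr16:13780457-13780516: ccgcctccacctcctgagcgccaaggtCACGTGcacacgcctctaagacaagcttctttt
Rrn3, chr16:13780624-13780683: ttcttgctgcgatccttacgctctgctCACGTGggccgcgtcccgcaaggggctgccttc
Imp4, chr1:34439681-34439740: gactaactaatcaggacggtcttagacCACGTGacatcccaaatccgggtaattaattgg
The motif begins 60 bases before the start in Nop2, 215 and 48 bases before it in Rrn3, and 121 bases before it in Imp4. Promoters for Npm1, Bop1, Rrp12 and Fbl were not searched.

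Values are log2 levels after RMA, and a level is compared only with the same gene's level on other arrays. Several classes of control probe set differed between the operations, and so did the arrays as a whole. The median over all 72688 probe sets was 2.05 ± 0.02 (SD, n = 8 arrays) after sham and 2.17 ± 0.02 after PHx, without overlap. Over the 8 arrays of each operation, probe sets named as positive controls had a median of 5.95 ± 0.09 (SD) after sham and 5.59 ± 0.12 after PHx. The antigenomic background stood at 1.24 ± 0.03 and 1.01 ± 0.04, the ERCC spike-in probe sets at 1.80 ± 0.05 and 1.60 ± 0.07, and the negative controls at 1.94 ± 0.06 and 2.02 ± 0.07. Probe sets of chromosome Y had a median of 1.81 ± 0.06 after sham and 5.19 ± 0.16 after PHx. The sham and PHx arrays did not overlap in these probe sets, nor in the positive controls, the antigenomic background or the spike-ins. Single genes of the sex chromosomes did not show a gap of the size of that median: Eif2s3y, Uty and Kdm5d of chromosome Y had means of 5.26, 4.88 and 4.07 on sham arrays and 4.98, 4.74 and 3.73 on PHx arrays, and Xist, the RNA of the inactive X chromosome, lay between 1.35 and 1.65 on all 16. The operation and any difference in the handling of sham and PHx arrays cannot be told apart in this design, which holds for every comparison of PHx with sham given here. Of the 38 members, 21 had a mean level below 5.07, the 95th percentile of the negative control values, and Nhp2 (4.64) and Rrp9 (4.39) were the 2 of them that passed a test. Ppara, the targeted gene, had means of 6.81 and 6.30 on sham fl/fl and sham ΔHep arrays and of 6.49 and 5.32 after PHx, and its genotype difference did not pass after either operation (limma, adjusted p = 0.681 and 0.326). The labels do not name the deleted exons, so this probe set does not settle the genotype. Cyp4a14, a PPARα target, lay above 6 on every fl/fl array and below 5 on every sham ΔHep array. After PHx the genotypes overlapped through PHx ΔHep array 4, at 6.97 against 6.11 on PHx fl/fl array 3. PHx ΔHep array 3, at 5.36, lay below every fl/fl array.

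The first comparison asks how the members stood 12 h after PHx in livers with PPARα. In fl/fl livers 3 of the 38 members rose, all of them large subunit factors. These were Nop2, an rRNA methyltransferase of the large subunit, the DEAD-box helicase Ddx18 and the nucleolar assembly factor Noc2l, with rises of 0.36 to 0.56 on the log2 scale. Of the other members, 2 fell: Ubtf, the factor that opens ribosomal RNA genes to RNA polymerase I, and Bop1, which acts with Pes1 and Wdr12 in large subunit processing. Among all genes tested 11.9% rose and 20.8% fell in this comparison, so the members' counts of 3 higher (of 38) and 2 lower were not above the background in the values as deposited. This reading depends on the scaling. After cyclic loess 14 members rose (36.8%), beside 11.9% of all genes. After quantile normalization 3 rose (7.89%), beside 8.08%, and with array medians subtracted 1 rose (2.63%), beside 7.58%. In the values as deposited, the members' changes had a median of 0.16, with 29 above 0, against a median of -0.04 over all genes. The median was 0.064 without PHx fl/fl array 3, and 0.056, with 21 members above 0, when array medians were subtracted, where that of all genes was -0.15.

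In ΔHep livers the same comparison called 6 members higher and the same 2 lower, beside 14.8% higher and 17.5% lower among all genes. The 6 were the snoRNP proteins Nop58, Nhp2 and Rrp9, the small subunit factors Wdr43 and Ltv1, and the nucleolar protein Ncl. Their rises ran from 0.18 to 1.04. After cyclic loess 13 members rose (34.2%), beside 12.2% of all genes. After quantile normalization 4 rose (10.5%), beside 8.58%, and with array medians subtracted 2 rose (5.26%), beside 7.1%. In the values as deposited, the median over the members was 0.10, with 28 above 0, against 0.01 over all genes. It turned to -0.05, with 15 members above 0, when array medians were subtracted, where that of all genes was -0.14, and to -0.01, with 17 above 0, without PHx ΔHep array 3. No member rose by the test in both genotypes, although 33 of the 38 had the same sign in both. Over all genes the changes in the 2 genotypes had a Pearson's r of 0.93, and over the members of 0.84. The 2 changes are taken from different arrays, but their tests share the estimate of the spread. In bulk tissue, fewer cells of a type and less RNA per cell cannot be told apart.

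**Figure D1:**
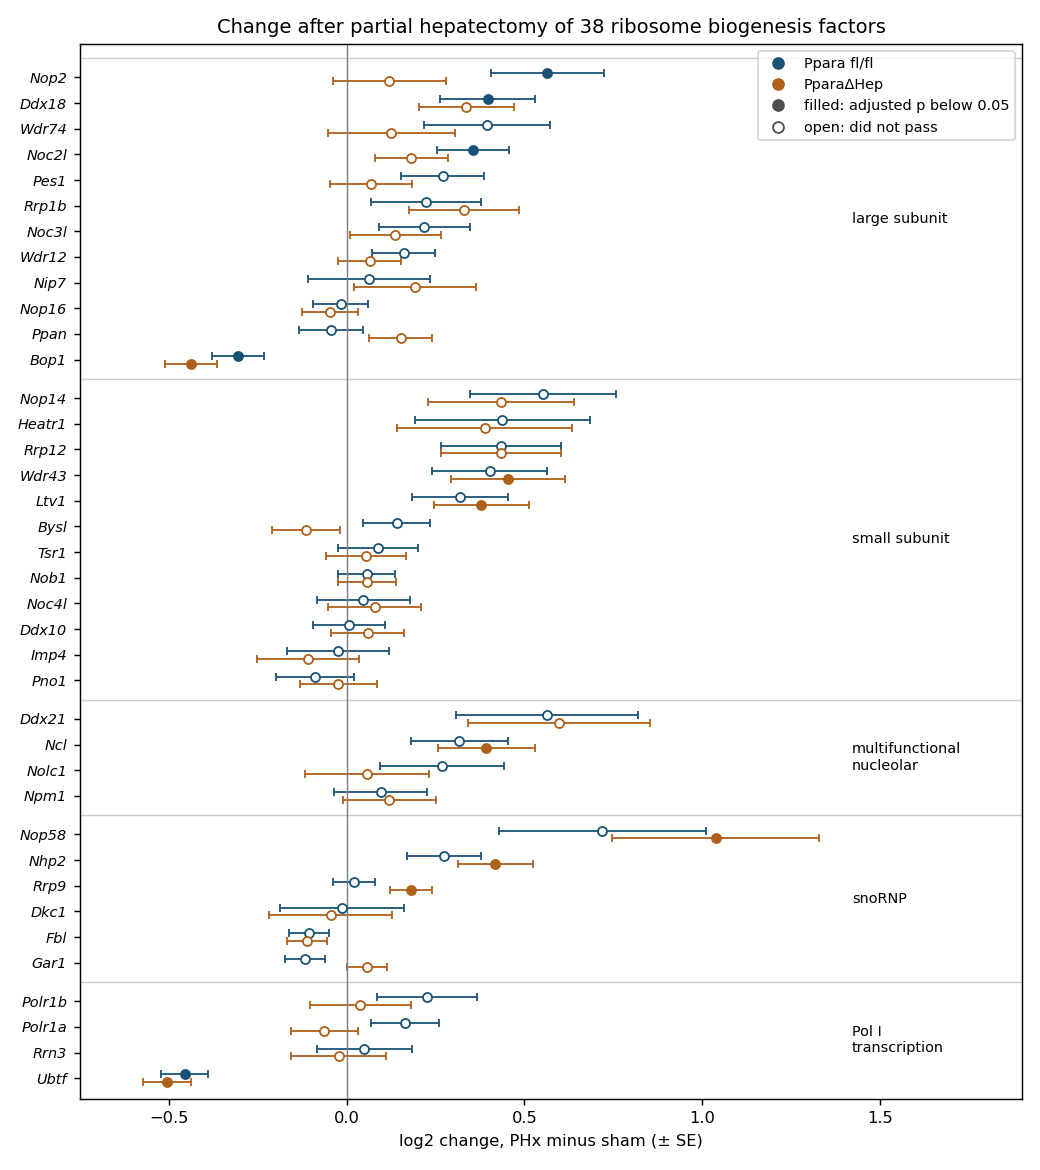
Log2 change after PHx against sham (x axis, ± SE) of the 38 measured members (y axis, by role) in Pparafl/fl (blue) and Ppara△Hep livers (brown), 4 arrays a group; filled points passed at adjusted p below 0.05. Most points lie right of 0, and Ubtf and Bop1 are the members that passed to the left of it in both genotypes.

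The mean over the 38 members was taken on each array. It stood at 5.07, 4.95, 4.82 and 4.99 on the sham fl/fl arrays and at 5.15, 5.03, 5.40 and 4.96 on the PHx fl/fl arrays. In ΔHep livers it stood at 4.91, 4.95, 4.92 and 5.06 after sham and at 4.86, 4.99, 5.37 and 5.20 after PHx. The groups overlapped in both genotypes, and PHx fl/fl array 3 and PHx ΔHep array 3 were the highest of the 16. The group means were 4.96 ± 0.10 and 5.14 ± 0.19 in fl/fl livers, and 4.96 ± 0.07 and 5.10 ± 0.22 in ΔHep livers (SD, n = 4 arrays each). The difference between PHx and sham was thus 0.18 and 0.14, about the size of the spread between PHx arrays. Without single arrays it ran from 0.09 to 0.23 in fl/fl livers and from 0.06 to 0.23 in ΔHep livers. With array medians subtracted it was 0.068 in fl/fl and -0.0055 in ΔHep livers. It was 0.088 and 0.096 after quantile normalization, and 0.29 and 0.27 after cyclic loess.

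**Figure D2:**
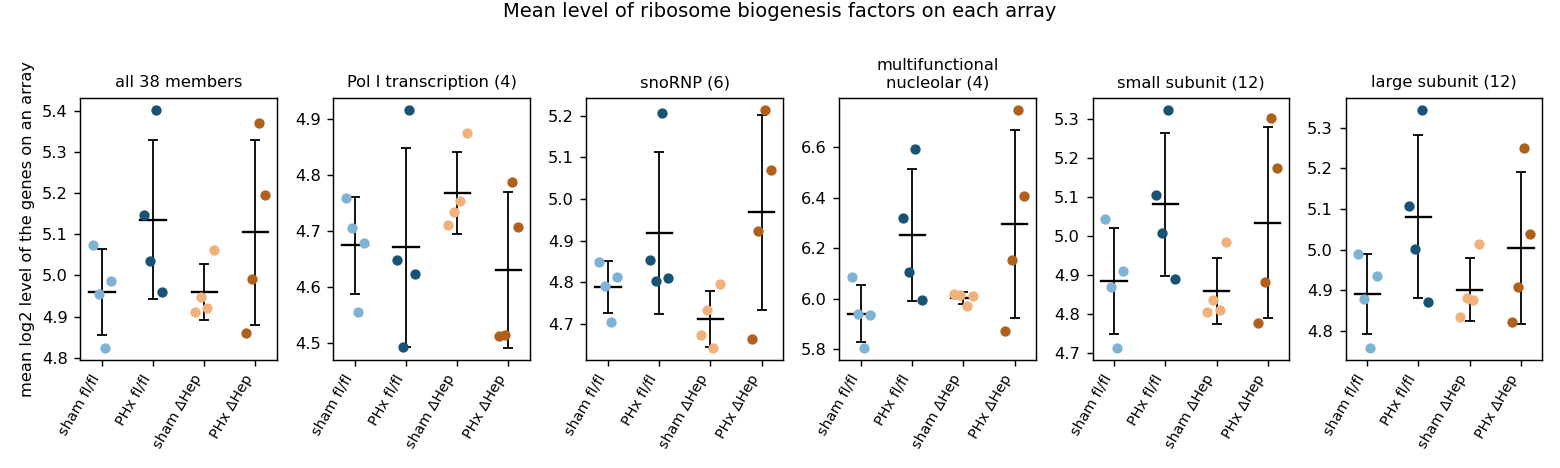
Mean log2 level (y axis) of all 38 members and of each role (number of genes in brackets) on each array (points), with the group mean and SD (line and bar), by group (x axis). For all members the sham and PHx arrays overlap in both genotypes, and the highest PHx array stands at 5.40 in fl/fl and 5.37 in ΔHep livers; each panel has its own scale.

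Of the 4 members that serve RNA polymerase I transcription, only Ubtf passed. On the sham fl/fl arrays Ubtf stood at 5.55, 5.61, 5.57 and 5.43, and on the PHx fl/fl arrays at 5.07, 4.95, 5.08 and 5.23. After sham in ΔHep livers it was 5.66, 5.61, 5.58 and 5.71, and after PHx 5.16, 5.25, 5.14 and 4.99. Every PHx array lay below every sham array of its genotype. Over all genes such a gap was common: 19.9% lay wholly below and 12% wholly above in fl/fl livers. In ΔHep livers 16.2% lay below and 15.8% above. Of the 38 members 3 lay below and 7 above in fl/fl livers, and 2 and 4 in ΔHep livers. Ubtf fell by 0.46 ± 0.07 (SE, n = 4 and 4) in fl/fl livers (limma, adjusted p = 0.000147) and by 0.50 ± 0.07 in ΔHep livers (adjusted p = 5.05e-05), which is 0.729 and 0.705 of the sham level. After subtraction of the positive control medians, the fall was 0.20 (log2 change -0.20, adjusted p = 0.0662) and 0.04 (-0.04, adjusted p = 0.656), and the calls were lost. The polymerase I subunits Polr1a and Polr1b had changes of 0.16 and 0.23 in fl/fl livers and of -0.06 and 0.04 in ΔHep livers. Rrn3, the factor that recruits the polymerase to its promoter and the member with 2 E-boxes, had changes of 0.05 and -0.02. None of these 3 genes passed in either genotype.

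The largest rise of the list was that of 1 snoRNP protein, Nop58. Over the 6 measured snoRNP proteins the median change was 0.0045 in fl/fl and 0.12 in ΔHep livers. Nop58, a core protein of the box C/D snoRNPs that guide rRNA methylation, stood at 5.46, 5.65, 5.45 and 5.87 on sham ΔHep arrays and at 5.93, 6.49, 7.16 and 7.01 on PHx ΔHep arrays. The groups did not overlap there, with arrays 3 and 4 the highest. Nop58 rose by 1.04 ± 0.29 in ΔHep livers (limma, adjusted p = 0.0132), which is 2.05-fold. In fl/fl livers it was 6.22, 5.68, 5.37 and 5.78 after sham and 6.33, 6.04, 7.36 and 6.21 after PHx, where the groups overlapped and array 3 stood far above the others. The change there was 0.72 ± 0.29 and did not pass (adjusted p = 0.0706).

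Nhp2, a core protein of the box H/ACA snoRNPs that guide pseudouridylation, was 4.29, 4.43, 4.36 and 4.63 on sham ΔHep arrays and 4.65, 4.82, 5.14 and 4.77 on PHx ΔHep arrays. All PHx arrays lay above all sham arrays. Nhp2 rose by 0.42 ± 0.10 in these livers (limma, adjusted p = 0.00681). In fl/fl livers its levels of 4.47, 4.51, 4.46 and 4.56 after sham and 4.81, 4.68, 5.001 and 4.60 after PHx did not overlap either, and the change of 0.27 ± 0.10 missed the threshold (adjusted p = 0.0572). The calls of Nop58 and Nhp2 in ΔHep livers held under each of the 10 other settings and without each of the 16 arrays in turn.

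Rrp9, which binds the U3 snoRNA used in the first cuts of the precursor, stood at 4.33, 4.38, 4.21 and 4.35 on sham ΔHep arrays and at 4.38, 4.40, 4.57 and 4.64 on PHx ΔHep arrays. The lowest PHx array and the highest sham array had the same level to 2 decimals, and the rise was 0.18 ± 0.06 (limma, adjusted p = 0.0307). On the fl/fl arrays its levels were 4.42, 4.30, 4.36 and 4.40 after sham and 4.35, 4.40, 4.45 and 4.38 after PHx, a change of 0.02 ± 0.06. The call ended when sham ΔHep array 1 or 3, or else PHx ΔHep array 3 or 4, was left out (adjusted p up to 0.107), and with array medians subtracted the change was 0.03 (adjusted p = 0.632). The catalytic subunits of the snoRNPs did not pass: Fbl, the methyltransferase fibrillarin, had changes of -0.10 and -0.11, and Dkc1, the pseudouridine synthase dyskerin, of -0.01 and -0.04 in fl/fl and ΔHep livers. Gar1, a partner of Dkc1, had changes of -0.12 and 0.06.

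Among the nucleolar proteins with several roles, Ncl (nucleolin) passed. On sham ΔHep arrays Ncl stood at 6.62, 6.54, 6.48 and 6.18, and on PHx ΔHep arrays at 6.49, 6.77, 7.27 and 6.86. The groups overlapped through PHx array 1, and Ncl rose by 0.39 ± 0.14 (limma, adjusted p = 0.0398). In fl/fl livers it was 6.49, 6.55, 6.48 and 6.46 after sham and 6.95, 6.71, 6.98 and 6.62 after PHx, with no overlap, and the change of 0.32 ± 0.14 missed the threshold (adjusted p = 0.0894). The call in ΔHep livers ended when 1 of sham ΔHep arrays 2, 3 and 4 or of PHx ΔHep arrays 3 and 4 was left out (adjusted p up to 0.124). Ddx21, an RNA helicase of rRNA transcription and processing, had changes of 0.56 ± 0.26 and 0.60 ± 0.26, larger than those of Ncl but with a wider spread (adjusted p = 0.104 and 0.0876). Nolc1, a chaperone of snoRNPs, had changes of 0.27 and 0.06, and the nucleolar chaperone Npm1 of 0.10 and 0.12, and neither passed.

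Of the 12 small subunit factors, none passed in fl/fl livers and 2 rose in ΔHep livers. Wdr43, a protein of the complex that binds the nascent precursor, was 4.83, 4.94, 4.92 and 4.90 on sham ΔHep arrays and 4.98, 5.23, 5.63 and 5.56 on PHx ΔHep arrays. The groups did not overlap, and the rise was 0.45 ± 0.16 (limma, adjusted p = 0.0431). Its levels on fl/fl arrays were 5.13, 4.97, 4.74 and 4.93 after sham and 5.26, 5.05, 5.87 and 5.21 after PHx, a change of 0.40 ± 0.16 (adjusted p = 0.0685).

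Ltv1, an assembly factor that leaves the small subunit late in its maturation, stood at 5.21, 5.35, 5.31 and 5.40 on sham ΔHep arrays and at 5.31, 5.62, 6.05 and 5.82 on PHx ΔHep arrays. PHx array 1 lay within the sham range, and the rise was 0.38 ± 0.13 (limma, adjusted p = 0.0428). In fl/fl livers Ltv1 was 5.59, 5.41, 5.11 and 5.45 after sham and 5.85, 5.73, 5.78 and 5.48 after PHx, a change of 0.32 ± 0.13 (adjusted p = 0.0819). Both calls depended on single arrays. Leaving out any sham ΔHep array, PHx ΔHep array 3 or 4, or either of sham fl/fl arrays 2 and 4 ended each of them, as did leaving out PHx fl/fl array 1 for Wdr43 and PHx fl/fl or PHx ΔHep array 2 for Ltv1 (adjusted p up to 0.127 for Wdr43 and 0.137 for Ltv1).

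The small subunit factor closest to the threshold without passing it was Nop14, a component of the early small subunit processome, with a change of 0.55 ± 0.20 in fl/fl livers (limma, adjusted p = 0.0504) and 0.43 ± 0.20 in ΔHep livers. Rrp12, an export factor, had a change of 0.43 ± 0.17 in both genotypes (adjusted p = 0.0605 and 0.0615). Heatr1, a processome scaffold, had changes of 0.44 ± 0.25 and 0.39 ± 0.25. Bysl, needed for late small subunit maturation, had changes of opposite sign, 0.14 and -0.11, and neither passed. The other 6, Imp4, Noc4l, Ddx10, Tsr1, Pno1 and Nob1, had changes from -0.11 to 0.09. Imp4, 1 of the 3 members whose E-box was shown, had changes of -0.02 and -0.11.

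The large subunit factors held all the rises of the fl/fl comparison. Nop2, with an E-box close before its start, stood at 5.33, 5.14, 4.98 and 5.12 on sham fl/fl arrays and at 5.82, 5.56, 6.03 and 5.43 on PHx fl/fl arrays. The groups did not overlap, and Nop2 rose by 0.56 ± 0.16 (limma, adjusted p = 0.0144), which is 1.48-fold. On ΔHep arrays it was 5.16, 5.12, 5.14 and 5.55 after sham and 5.15, 5.14, 5.84 and 5.34 after PHx, where the groups overlapped and the change was 0.12 ± 0.16 (adjusted p = 0.606). The difference between the 2 changes was -0.44 ± 0.23 and did not pass (adjusted p = 0.484), so Nop2 was not shown to respond differently in the 2 genotypes.

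Noc2l was 5.15, 5.20, 5.08 and 5.05 on sham fl/fl arrays and 5.57, 5.46, 5.63 and 5.26 on PHx fl/fl arrays. Every PHx array lay above every sham array, and Noc2l rose by 0.36 ± 0.10 (limma, adjusted p = 0.0153). Its levels in ΔHep livers were 5.20, 5.17, 5.15 and 5.26 after sham and 5.21, 5.20, 5.72 and 5.38 after PHx, a change of 0.18 ± 0.10 that did not pass.

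Ddx18 stood at 4.99, 4.93, 4.78 and 5.09 on sham fl/fl arrays and at 5.26, 5.30, 5.70 and 5.12 on PHx fl/fl arrays. The groups did not overlap, and the rise was 0.40 ± 0.13 (limma, adjusted p = 0.0324). In ΔHep livers it was 4.82, 4.94, 4.96 and 5.11 after sham and 4.97, 5.24, 5.62 and 5.33 after PHx, a change of 0.34 ± 0.13 (adjusted p = 0.0645). The call ended when any of sham fl/fl arrays 1, 2 and 3 or PHx fl/fl arrays 2 and 3 was left out (adjusted p up to 0.102).

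Bop1 moved the other way. It stood at 5.49, 5.42, 5.34 and 5.32 on sham fl/fl arrays and at 5.22, 5.10, 5.11 and 4.92 on PHx fl/fl arrays. In ΔHep livers it was 5.32, 5.32, 5.47 and 5.50 after sham and 4.98, 4.96, 5.10 and 4.82 after PHx. Every PHx array lay below every sham array of its genotype, and Bop1 fell by 0.30 ± 0.07 (limma, adjusted p = 0.00574) and 0.44 ± 0.07 (adjusted p = 0.000402). After subtraction of the positive control medians its changes were -0.046 and 0.027 and did not pass, and after cyclic loess the fl/fl change was -0.18 (adjusted p = 0.071). Its partners in the same complex did not pass: Pes1 had changes of 0.27 and 0.07, and Wdr12 of 0.16 and 0.07. Of the other 6 large subunit factors, Wdr74 (0.39 and 0.13), Rrp1b (0.22 and 0.33) and Noc3l (0.22 and 0.14) had the larger changes, and Nip7, Nop16 and Ppan had changes from -0.05 to 0.19. None of them passed.

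**Figure D3:**
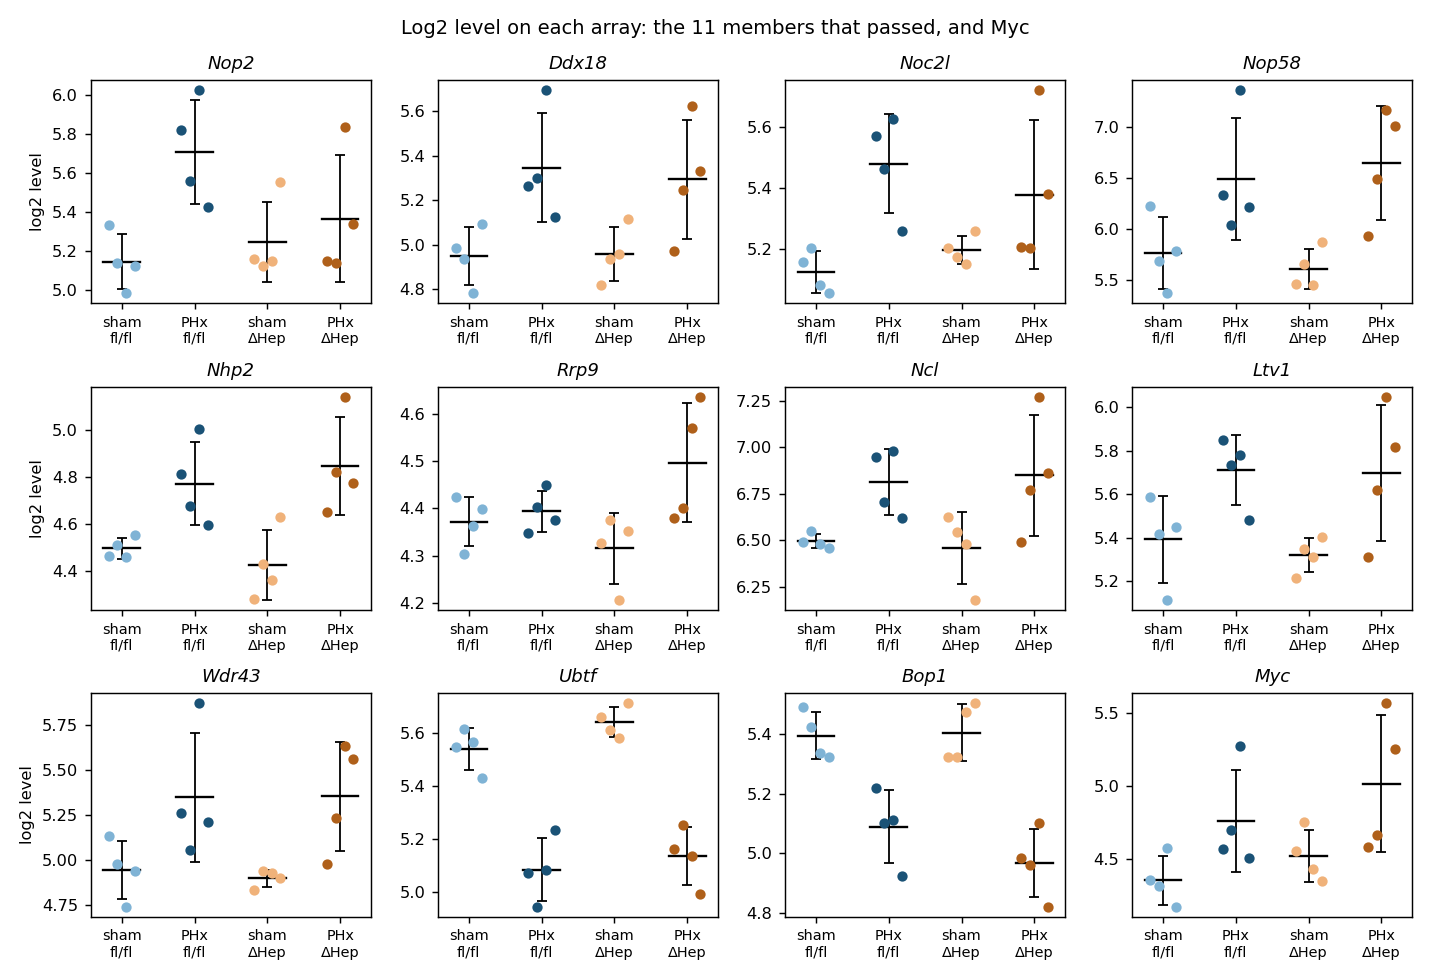
Log2 level (y axis) on each of the 16 arrays (points) by group (x axis), with the group mean and SD, of the 11 members that passed after PHx in either genotype and of Myc. Ubtf and Bop1 show no overlap of sham and PHx arrays, and for Nop58 and Wdr43 PHx fl/fl array 3 and PHx ΔHep arrays 3 and 4 stand highest; each panel has its own scale.

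The counts of rises moved with single arrays. In fl/fl livers the count of 3 became 9 without PHx fl/fl array 4, PHx ΔHep array 1 or PHx ΔHep array 3, and 5 without PHx ΔHep array 2. The ΔHep arrays enter this comparison through the estimate of the spread alone, which all groups share. In ΔHep livers the count of 6 became 10 without PHx ΔHep array 1. It became 3 without sham ΔHep array 1, 2 or 4, and 2 without sham ΔHep array 3 or PHx ΔHep array 3 or 4. Over all genes the rises in ΔHep livers numbered 4461, and 3519 to 4670 without single arrays. The calls of Nop2, Noc2l, Ubtf and Bop1 in fl/fl livers and of Ubtf and Bop1 in ΔHep livers were kept without each array in turn. With array medians subtracted, the calls of Noc2l, Ddx18, Ltv1, Wdr43, Ncl and Rrp9 were lost (adjusted p from 0.0512 to 0.632).

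The genotype comparisons ask whether loss of PPARα in hepatocytes changed the members. They share arrays with the comparisons above. After sham, none of the 38 members passed between ΔHep and fl/fl livers, beside 0.0133% of all genes. An unadjusted p below 0.05 (limma) was reached by 0 members, beside 2792 of the 30142 genes. After PHx none passed either, beside 0.143% of all genes. There 2 members had an unadjusted p below 0.05 (limma), beside 2253 of the 30142 genes. The 2 members were Nop2, lower in ΔHep livers by a log2 change of -0.34, and Bysl, by -0.24. The member mean differed between genotypes by 0.00 after sham and by -0.03 after PHx. Without single arrays these differences took either sign, from -0.04 to 0.04 after sham and from -0.12 (without PHx ΔHep array 3) to 0.06 (without PHx fl/fl array 3) after PHx. The test of whether the PHx change differed between genotypes called 0 members, beside 0% of all genes, for which 3400 of 30142 had an unadjusted p below 0.05. Of the members, only Gar1 did, with a difference of 0.17 ± 0.08 (limma, adjusted p = 0.426). The standard error of such a difference ran from 0.08 to 0.41 over the members, which limits the size that could be seen.

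The spread between arrays was itself larger after PHx. The SD over the 4 arrays was larger after PHx than after sham for 31 of the 38 members in fl/fl livers (81.6%) and for 36 in ΔHep livers (94.7%), against 60.2% and 61.2% of all genes. Members share arrays, so these counts describe the arrays and carry no test.

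The members also varied together from array to array. For each gene the deviations of the 16 arrays from their group means were correlated with the mean of the other members. Pearson's r had a median of 0.81 over the 38 members, and 34 were above 0.5. Over 105 other ribosome biogenesis genes the median r with the member mean was 0.69, and over the 30104 remaining genes, the latter list included, it was -0.01, with 10% above 0.5. The highest was Ddx21 at 0.98, followed by Nop14 at 0.95 and Nop58 at 0.94. Pno1, a late small subunit factor, and Ubtf went against the others, at -0.30 and -0.25, and Bop1 was among the lowest at 0.40. Over the 703 pairs of members, the median r was 0.63, and 90.6% of the pairs were positive. All points share the 16 arrays and their normalization, and the values are descriptions.

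**Figure D4:**
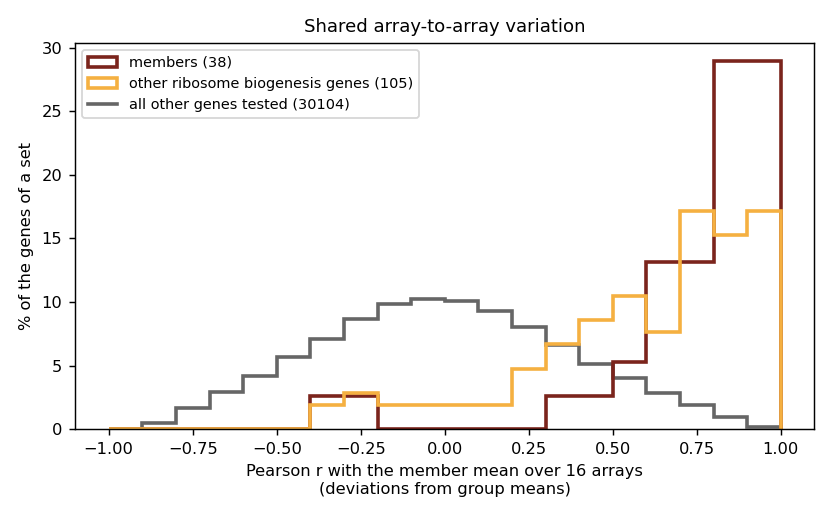
Share of genes (y axis, %) by Pearson's r between a gene's deviations from its group means and those of the member mean over 16 arrays (x axis), for 38 members (each against the mean of the others), 105 other ribosome biogenesis genes and all other genes tested. The members lie mostly above 0.5 with a median of 0.81, and all other genes are centred near 0.

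The member mean moved with the level of the negative control probe sets. Over the 16 arrays, the deviations of the 2 from their group means had a Pearson's r of 0.84 and a Spearman's rho of 0.89. Without the 2 arrays farthest from the median of the negative controls, sham fl/fl array 3 and PHx fl/fl array 3, r was 0.78. Within sham and within PHx arrays (8 each) it was 0.85 and 0.86, and with the positive controls it was -0.13. Gene by gene, r with the negative control median had a median of 0.70 over the members, with 78.9% above 0.5. Over the other ribosome biogenesis genes the median was 0.62, with 61% above 0.5. Over all 30104 genes outside the member list it was -0.02, with 9.3% above 0.5. The negative control median was 2.12 on PHx fl/fl array 3, 2.10 on PHx ΔHep array 4 and 2.07 on PHx ΔHep array 3, the 3 highest arrays, and these also had the highest member means. With the negative control median as a covariate, a setting added after the data were seen, 0 members rose and 3 fell in fl/fl livers, and 3 rose and 2 fell in ΔHep livers. Among all genes, 7.13% rose and 8.85% fell in fl/fl livers with this covariate, and 13.3% rose and 16.1% fell in ΔHep livers. The calls of Nop2, Noc2l and Ddx18 in fl/fl livers and of Ltv1, Ncl and Rrp9 in ΔHep livers were lost. The member mean difference was then -0.079 in fl/fl livers and 0.05 in ΔHep livers. What moves both quantities was not tested.

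**Figure D5:**
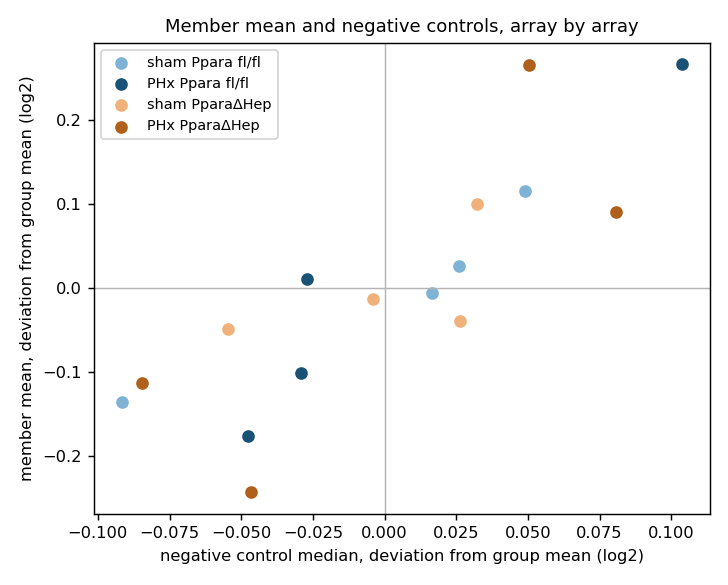
Deviation of the member mean from its group mean (y axis, log2) against that of the negative control median (x axis, log2) for the 16 arrays, coloured by group. The points run from lower left to upper right, with r = 0.84 over the 16 arrays.

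Myc itself did not pass. It stood at 4.35, 4.31, 4.58 and 4.17 on sham fl/fl arrays and at 4.57, 4.70, 5.27 and 4.51 on PHx fl/fl arrays. In ΔHep livers it was 4.55, 4.75, 4.43 and 4.35 after sham and 4.58, 4.66, 5.57 and 5.25 after PHx. The 3 highest levels lay on the same 3 arrays that had the highest member means. The changes were 0.41 ± 0.20 (limma, adjusted p = 0.141) and 0.50 ± 0.20 (adjusted p = 0.0764). Its partner Max had changes of 0.15 and -0.07, and Mnt, which competes for Max, of -0.02 and 0.16, and neither passed. Of all genes, 20.8% fell in fl/fl and 17.5% in ΔHep livers. Of the 10 measured genes of the Myc network, none rose and 2 fell in both genotypes. These were Mxd4, a Max-binding repressor, which fell by 0.50 ± 0.15 and 0.70 ± 0.15 (adjusted p = 0.016 and 0.002), and Mycn, a paralogue of Myc, which fell by 0.39 ± 0.06 and 0.20 ± 0.06 (adjusted p = 0.000301 and 0.0227).

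Other genes of the pathway moved in both directions. Of 105 measured, 8 rose and 7 fell in fl/fl livers, where 11.9% of all genes rose and 20.8% fell. In ΔHep livers 4 rose and 16 fell, beside 14.8% and 17.5% of all genes. The genotypes shared 3 rises and 6 falls. Over the 105 genes the median change was 0.09 and 0.04, below the members' 0.16 and 0.10. The largest rises in fl/fl livers were those of Mybbp1a, a nucleolar Myb-binding protein, at 0.61 ± 0.19, and of Eif6, which keeps the new large subunit from joining the small one, at 0.60 ± 0.14. They were followed by the large subunit factors Rpf2 at 0.46 ± 0.12 and Gtpbp4 at 0.40 ± 0.12. In ΔHep livers Sdad1 rose by 0.60 ± 0.21, Eif6 by 0.40 ± 0.14, Gtpbp4 by 0.36 ± 0.12 and Rpf2 by 0.35 ± 0.12. The largest falls were shared. Emg1, an rRNA methyltransferase, fell by 0.53 ± 0.08 and 0.50 ± 0.08, and Pih1d1, of a complex that assembles snoRNPs, by 0.44 ± 0.05 and 0.45 ± 0.05. Bud23, an rRNA methyltransferase, fell by 0.37 ± 0.06 in fl/fl and 0.50 ± 0.06 in ΔHep livers.

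Markers of liver cell types were read on the same arrays. Beside their counts, 20.8% of all genes were lower and 11.9% higher in fl/fl livers, and 17.5% and 14.8% in ΔHep livers. Hepatocyte markers gave 3 of 9 lower in each genotype, and their mean ran from 10.21 to 10.40 on sham and 10.17 to 10.24 on PHx fl/fl arrays, and from 10.24 to 10.39 and 10.17 to 10.28 on ΔHep arrays. Macrophage markers gave 4 and 7 of 9 lower, with a mean of 5.04 to 5.57 on sham and 4.74 to 5.12 on PHx fl/fl arrays, and 5.20 to 5.69 and 4.68 to 5.20 on ΔHep arrays. Sinusoidal endothelial markers gave 5 lower and 1 higher of 8 in each genotype, with 5.54 to 5.64 and 5.16 to 5.35 in fl/fl livers and 5.46 to 5.58 and 4.99 to 5.24 in ΔHep livers. Stellate and fibroblast markers gave 3 of 8 lower in each. Of 8 neutrophil and monocyte markers 1 rose in each genotype and 1 fell in fl/fl livers, of 8 lymphocyte markers 3 fell in fl/fl livers, and of 5 cholangiocyte markers 1 fell there. The hepatocyte marker Alb stood at 11.9 and 11.8 in fl/fl livers and 11.8 in both ΔHep groups. The part of cell composition in the members' changes was not tested.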

How the data were processed

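Liver RNA of 16 arrays in 4 groups of 4 was measured. The deposited table holds log2 values per probe set, made by the authors with RMA per the submitters' processing notes. Array software was not given in the sources used here, nor was a genome build. Of 72688 probe sets, 30604 had 1 gene symbol, 2146 several and 39938 were unlisted in the platform annotation. Updating through RefSeq gene entries changed 827 symbols, and probe sets with several symbols were left unnamed.

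The 30142 genes were fitted by limma (version 3.58.1, R 4.3.3, input through data.table version 1.17.8): 1 mean per group, 12 residual degrees of freedom, default eBayes, Benjamini-Hochberg adjustment over all genes, threshold 0.05, 5 comparisons. The fit was checked on simulated data. RMA brings arrays to a common scale and compresses low levels, so changes of dim genes are understated. Precision is limited by the number of arrays.

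The members and lists were chosen with earlier results of these data known. Named were members that passed in any comparison (values on every array), all other measured members by change or range, the 4 largest rises and falls that passed among other ribosome biogenesis and Myc network genes, and Myc, Max, Mnt, Ppara and Cyp4a14. No p is given for the list. Alternatives were other scalings, filters on genes, probe set rules, variance models, only the 2 groups compared, and each array left out. Subtraction of positive control medians and the negative control covariate were added after the data were seen.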

Additional observations from a re-analysis of the deposited data

Results flagged for a closer look

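One value stood apart from its group. The level of Nop2 on sham ΔHep array 4 was 5.55, against 5.12 to 5.16 on the other 3 arrays, and its gap to the nearest array was 0.923 of the group's range and above Dixon's 95% critical value for 4 arrays. It was 1 of 48 groups tested over the members that passed and Myc, and chance gives about 1 in 20.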

How the results depend on the processing

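The counts of members that rose or fell depended on the scaling. Rises in fl/fl and ΔHep livers (3 and 6 as reported) numbered 1 and 2 with array medians subtracted, 14 and 13 after cyclic loess, 24 and 36 with positive control medians subtracted, 0 and 3 with the negative control covariate, and 7 and 3 in fits of only the 2 groups compared. After quantile normalization the rises numbered 3 and 4. Falls (2 and 2 as reported) numbered 4 and 5 with array medians subtracted, 4 in fl/fl livers after quantile normalization, 1 in fl/fl livers after cyclic loess, and 0 and 0 with positive control medians subtracted. All genes moved in part with them. The share of all genes that rose in fl/fl and ΔHep livers was 11.9% and 14.8% as reported, 7.58% and 7.1% with array medians subtracted, 11.9% and 12.2% after cyclic loess, 41.1% and 81.2% with positive control medians subtracted, and 7.13% and 13.3% with the covariate. After quantile normalization this share was 8.08% and 8.58%. The share of all genes that fell was 20.8% and 17.5% as reported, and 43.6% and 43.8% with array medians subtracted. It was 43% and 34.9% after quantile normalization and 16.6% and 14.8% after cyclic loess. With positive control medians subtracted, 4.05% and 2.39% of all genes fell, and with the covariate 8.85% and 16.1%. The median of all genes went to -0.15 and -0.14 with array medians subtracted, -0.14 and -0.10 after quantile normalization, -0.04 and -0.02 after cyclic loess, and 0.22 and 0.47 with positive control medians subtracted, where it had been -0.04 and 0.01. Leaving out each array gave 2 to 9 rises in fl/fl and 2 to 10 in ΔHep livers, and 2 falls in each. Over all genes it gave 3038 to 3685 rises in fl/fl and 3519 to 4670 in ΔHep livers, and 4673 to 6491 and 4201 to 5429 falls. The member mean difference was 0.43 and 0.61 with positive control medians subtracted, and the difference between genotypes 0.17. With the negative control covariate it was -0.079 in fl/fl livers, the genotype difference after sham was -0.17, and the difference of PHx changes 0.13. Bop1 in ΔHep livers turned from -0.44 to 0.027 with positive control medians subtracted. The cause was not tested. Filters to genes at or above the median level or to protein-coding genes, means over probe sets, and a trended robust variance left every count of members within 1.5 times. No member passed between genotypes, or for the difference of changes, in any setting run. No paired analysis was possible because the groups share no replicate numbers: each title carries a serial number of its own, whose meaning the labels do not give.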
